A study of Mus musculus with 8 samples.

Results

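The genes described here were 9 transcription factors of the myeloid lineage, Spi1, Maf, Klf2, Klf4, Cebpa, Cebpb, Runx1, Runx3 and Zeb2, taken by symbol from a table of 14971 genes with a symbol. All 9 were listed and all 9 were among the 14184 genes abundant enough to test. They were compared between GPR35-positive and GPR35-negative macrophages of the lamina propria of the colon in 4 male mice. GPR35 is a G protein-coupled receptor whose proposed ligands include lysophosphatidic acid and kynurenic acid. Both populations were sorted by flow cytometry as cells with MHC class II and with CD64, a receptor for IgG, and each animal gave 1 library of each, so that there were 4 GPR35-positive and 4 GPR35-negative libraries. Strain, age and any treatment were not given in the sources used here. RNA was amplified with SMART-Seq v4 and made into libraries with Nextera XT, which marks no strand and uses no molecular identifiers, so reads are not counts of independent molecules.

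Myeloid identity is set by a small group of factors that act together. PU.1, the ETS protein encoded by Spi1, opens enhancers of myeloid genes and sets macrophage fate where its dose is high. C/EBPα and C/EBPβ bind beside it and drive granulocyte and monocyte genes, the first early in the lineage and the second also in inflammatory and emergency responses. RUNX1 acts upstream of PU.1 in blood formation, and RUNX3 serves in lymphocytes and in intestinal mononuclear phagocytes. c-MAF, KLF2, KLF4 and ZEB2 act in differentiated cells: c-MAF limits self-renewal and drives Il10 and complement genes, KLF2 restrains inflammatory activation, KLF4 promotes monocyte differentiation, and ZEB2, a repressor, maintains the identity of tissue macrophages.

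Total counts were 33.8 to 48.6 M in the GPR35-positive and 16 to 30.1 M in the GPR35-negative libraries. Gpr35 itself was at 73.3 ± 14.9 CPM (counts per M counts of the library, after TMM scaling) in GPR35-positive and 2.97 ± 1.46 CPM in GPR35-negative libraries (SD, n = 4 each), with a log2 fold change of 4.60 ± 0.39 (SE; edgeR quasi-likelihood test, adjusted p = 1.07e-04). The cell type check separated the libraries. All 20 macrophage markers tested were called higher in GPR35-positive cells, with a summed level of 49390 to 58110 CPM there and 5885 to 24550 CPM in GPR35-negative libraries. All 11 tested B and plasma cell markers were lower, with a summed level of 1215 to 2654 CPM in GPR35-positive and 73490 to 143900 CPM in GPR35-negative libraries. Jchain, the joining chain of secreted antibodies, held 67770 to 134300 CPM of the last sum, so the GPR35-negative libraries went against their macrophage label in this respect. Pax5 had no count in at least 1 library of each group, and none of the 20 macrophage markers was at 0 in any library. In bulk samples such as these, fewer cells of a type and less RNA per cell cannot be told apart.

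Between the populations, 7 of the 9 factors were higher in GPR35-positive cells (Spi1, Klf4, Cebpa, Cebpb, Runx1, Runx3 and Zeb2), 0 were lower and Maf and Klf2 were not called. Over all tested genes, 18.5% were called higher, 19.5% lower and 38.0% in either direction at an edgeR adjusted p under 0.05. The same 7 factors had CPM ranges above those of the GPR35-negative libraries without overlap, which 21.5% of all tested genes had, while 20.6% of genes and 0 of the 9 factors were below without overlap. The median log2 fold change of the 9 factors was 1.59, against -0.05 over all genes tested. CPM values here are scaled by TMM, edgeR's trimmed mean of M-values, which sets the bulk of genes equal between libraries. When every library was instead scaled to the 20 macrophage markers, 0 of the 9 factors were called higher and Klf2, Klf4 and Maf were called lower. This scaling used the geometric mean of the marker counts. The ratios to markers given below use their sum, so values by these measures differ. Under that scaling 0.557% of all tested genes were called higher and 86.4% lower, and the median of all genes was -2.60. On TMM-scaled values 1.56% of tested genes had a larger log2 fold change than Cebpa, 3.48% a larger one than Runx3, 3.76% than Spi1 and 49.1% than Klf2; by the count over the summed macrophage marker counts, 2.19% of genes had a larger difference than Cebpa, 5.46% than Runx3, 5.20% than Spi1 and 51.0% than Klf2. The similar ranks follow from how such scaling works, since it moves all genes of a library by the same factor.

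**Figure D1:**
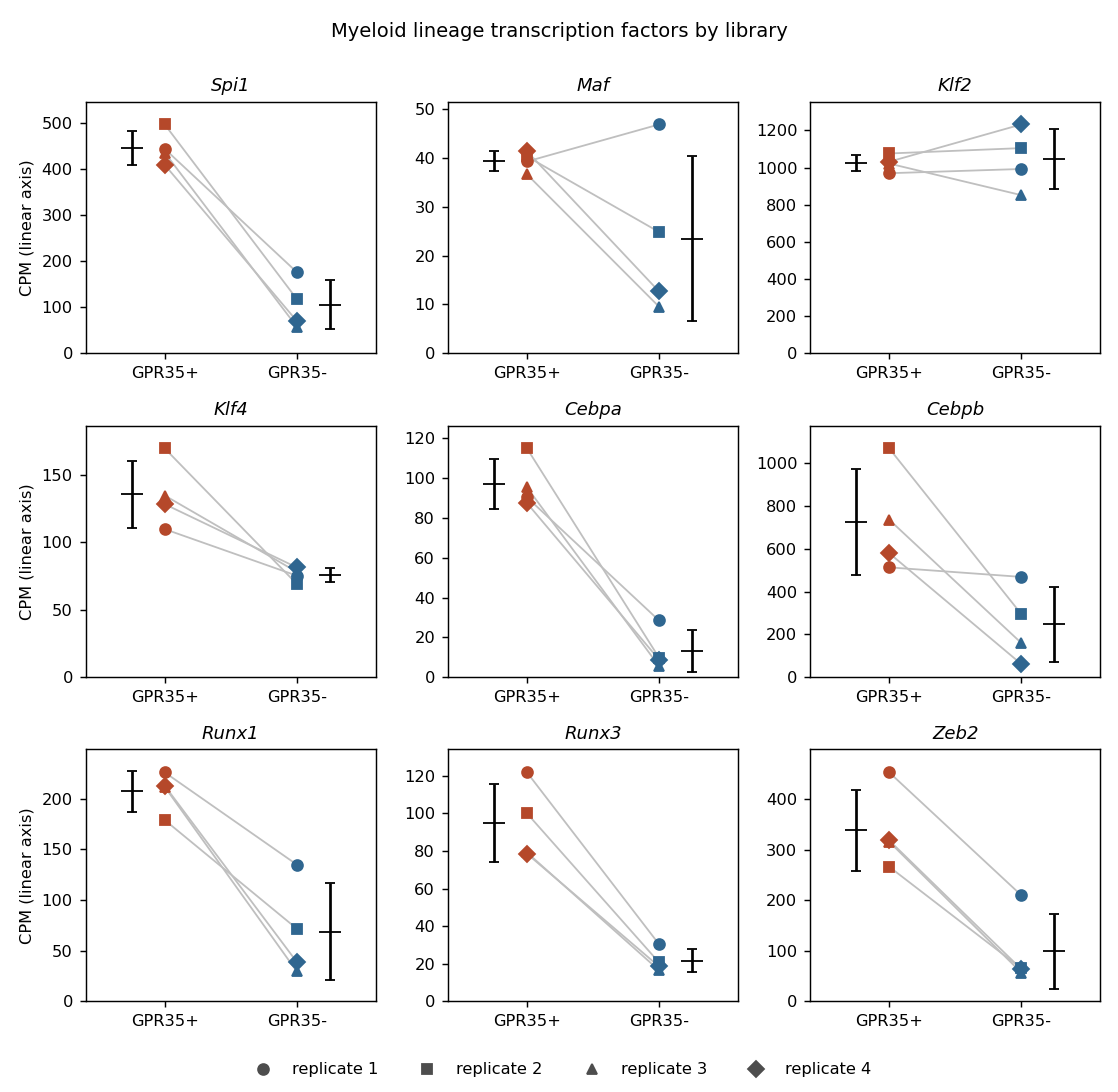
TMM-scaled CPM (linear axis from 0) of the 9 factors in the 4 GPR35-positive (left, red) and 4 GPR35-negative libraries (right, blue); grey lines join the libraries of 1 animal, symbols give the replicate, and the black bars are mean ± SD. The groups do not overlap for 7 factors; Maf and Klf2 overlap, and the blue circle of replicate 1 is the highest GPR35-negative library for every factor but Klf2 and Klf4.

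Ranked per length as reads per kilobase per M reads (RPKM), Klf2, Cebpb and Spi1 were the 3 most abundant of the factors in both populations. In GPR35-positive cells Klf2 was at 564 ± 24.0 RPKM, Cebpb at 477 ± 163 RPKM and Spi1 at 335 ± 27.6 RPKM. These 3 ranges ran into each other from neighbour to neighbour, and all lay above Klf4 at 44.5 ± 8.21 RPKM. Below it came Cebpa at 36.8 ± 4.69, Zeb2 at 36.1 ± 8.56, Runx1 at 28.1 ± 2.72 and Runx3 at 24.4 ± 5.28 RPKM, each overlapping its neighbour, and Maf stood alone at the bottom with 10.8 ± 0.56 RPKM. In GPR35-negative cells Klf2 was at 575 ± 89.2 RPKM with no overlap with the next factor, Cebpb, at 163 ± 116 RPKM. Spi1 followed at 79.3 ± 40.4 RPKM, overlapping Cebpb, and Klf4 at 24.9 ± 1.70 RPKM, overlapping neither neighbour. The remaining 5 lay between 5.02 and 10.6 RPKM on average with overlapping ranges, and Cebpa was the lowest of the 9, below Runx3 and Maf, which it exceeded in GPR35-positive cells.

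The makeup of the factor pool, taken as each gene's share of the summed RPKM of the 9, does not depend on how libraries are scaled. These shares were chosen for description after the values were seen. They are tied to each other, because a larger share of some factors leaves less for the rest. Klf2 hardly differed in CPM (log2 fold change -0.03), so the shares are not separate from the CPM differences. How often other genes would differ in this way was not measured. Klf2 made up 31.9% to 39.8% of the sum in GPR35-positive libraries and 50.4% to 82.5% in GPR35-negative ones. Spi1 made up 20.1% to 23.8% in GPR35-positive and 6.42% to 12.2% in GPR35-negative libraries, and Cebpa 2.33% to 2.45% in GPR35-positive and 0.322% to 0.998% in GPR35-negative libraries. Runx3 also had shares that did not overlap, 1.32% to 2.24% in GPR35-positive against 0.561% to 0.720% in GPR35-negative libraries. Cebpb, with 24.2% to 37.9% in GPR35-positive and 4.96% to 28.5% in GPR35-negative libraries, overlapped, as did Klf4, Maf, Runx1 and Zeb2.

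**Figure D2:**
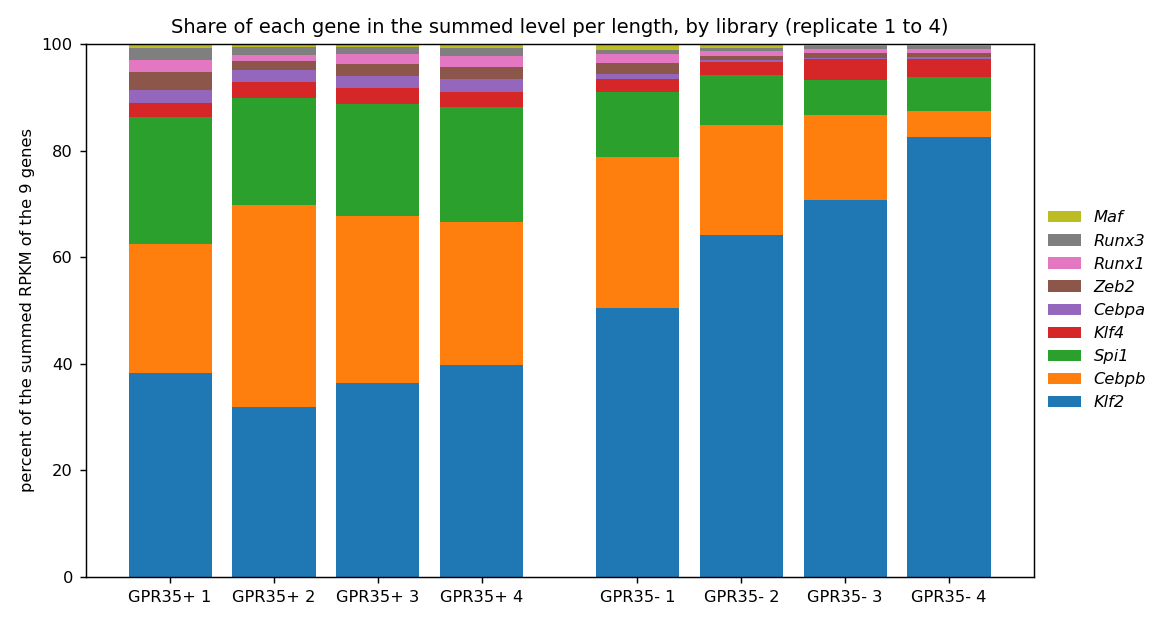
Share of each factor in the summed RPKM of the 9, in percent, as stacked bars for each library (GPR35-positive replicates 1 to 4 on the left, GPR35-negative on the right). Klf2 fills 31.9% to 39.8% of the bars of GPR35-positive and 50.4% to 82.5% of those of GPR35-negative libraries, and the Spi1 and Cebpa segments are wider in every GPR35-positive bar.

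For the start sites of these genes, RefSeq promoters of GRCm38.p6 (250 bases before to 50 after a start) were held for 7 of the 9, with 12 promoters in all; Spi1 and Maf had no entry. The 250 bases upstream of the KLF and C/EBP genes are shown because each family has 2 genes among the 9 that differed in the comparison, with Klf2 the least and Cebpa the most different in CPM of all 9. Capitals mark the KLF-type motif CACCC on either strand and, in Klf2, the MEF2-type motif (CTA, 4 free bases, TAG), both searched on both strands. The windows are chr8:72318812-72319061 (+ strand) for Klf2, chr4:55532476-55532725 (- strand) for Klf4, chr7:35119043-35119292 (+ strand) for Cebpa and chr2:167688665-167688914 (+ strand) for Cebpb.
Klf2: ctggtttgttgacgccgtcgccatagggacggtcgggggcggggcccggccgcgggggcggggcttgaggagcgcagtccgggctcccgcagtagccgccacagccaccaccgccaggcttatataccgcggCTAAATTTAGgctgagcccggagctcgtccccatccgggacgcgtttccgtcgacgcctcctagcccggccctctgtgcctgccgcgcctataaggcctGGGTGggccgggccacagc
Klf4: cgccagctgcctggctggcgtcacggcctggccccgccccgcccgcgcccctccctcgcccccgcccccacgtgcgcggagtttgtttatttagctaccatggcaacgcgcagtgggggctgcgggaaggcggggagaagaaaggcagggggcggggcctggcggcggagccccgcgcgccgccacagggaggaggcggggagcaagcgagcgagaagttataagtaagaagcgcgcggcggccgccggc
Cebpa: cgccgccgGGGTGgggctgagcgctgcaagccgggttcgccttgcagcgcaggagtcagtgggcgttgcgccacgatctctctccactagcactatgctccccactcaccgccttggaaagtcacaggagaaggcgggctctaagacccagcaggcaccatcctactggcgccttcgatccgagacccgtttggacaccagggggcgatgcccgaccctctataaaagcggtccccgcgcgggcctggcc
Cebpb: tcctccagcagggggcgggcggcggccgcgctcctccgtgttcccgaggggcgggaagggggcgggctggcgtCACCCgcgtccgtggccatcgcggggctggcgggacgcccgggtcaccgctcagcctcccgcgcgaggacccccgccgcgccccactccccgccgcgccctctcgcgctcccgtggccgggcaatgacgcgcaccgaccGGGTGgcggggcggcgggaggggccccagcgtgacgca
The MEF2-type motif of Klf2 starts 118 bases before the start site, and 3.69% of all 32851 RefSeq promoters of 300 bases hold one; MEF2 binding at the Klf2 promoter is known from endothelial and other cells. The KLF-type motif occurs in 57.5% of all promoters. These 4 windows are rich in G and C, at 66.4% to 81.6%, against a median of 52.7% over all promoters of 300 bases.

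The RUNX genes are shown for a shared feature. Mammalian RUNX genes have a distal and a proximal promoter, and the first promoter listed here for Runx1 and for Runx3 holds a pair of RUNX motifs in the form ACCACA, which is TGTGGT on the other strand, with 2 bases between. The 24 bases around the pair are at chr16:92826028-92826051 (- strand) in Runx1, beginning 24 bases into the transcript, and at chr4:135120506-135120529 (+ strand) in Runx3, beginning 139 bases before the start. Capitals mark the motifs.
Runx1: aaacaACCACAgaACCACAagttg
Runx3: cctcaACCACAgaACCACAaggcc
The 2 sequences were identical at 18 of 24 bases. These include the letters of both motifs, which are the same because the windows were chosen around the pair. Over all 32851 promoters 7 held such a pair, 0.0213%, and these included Runx1, Runx2 and Runx3; the single motif TGTGGT was in 16.8%. All motifs were chosen after the promoter table was in hand, and the pair and the MEF2-type motif after these sequences had been read. A match is a description of letters and not of binding, and use of one promoter or the other was not measured in these counts per gene.

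The lineage factor Spi1 (Entrez 20375, chromosome 2, 91082374 to 91115759, + strand in GRCm38.p6, protein coding, as are all 9) had 444, 497, 436 and 409 CPM in GPR35-positive replicates 1 to 4, and 176, 118, 57.7 and 70.3 CPM in GPR35-negative replicates 1 to 4. Every GPR35-positive library lay above every GPR35-negative one, and the GPR35-negative libraries of replicates 3 and 4 were the lowest. The means were 447 ± 36.8 and 106 ± 53.9 CPM (SD, n = 4 each), and the log2 fold change was 2.08 ± 0.33 (SE; adjusted p = 0.00185 in edgeR), with Spi1 higher in 4 of 4 animals. Against the summed macrophage marker reads of its own library Spi1 had 8.44, 8.55, 8.83 and 7.26 reads per 1000 marker reads in GPR35-positive and 7.18, 9.27, 9.81 and 8.81 in GPR35-negative libraries. The log2 difference of this ratio was -0.08 and the groups overlapped (2-sided exact permutation p = 0.514). That denominator is not independent of PU.1: 14 of the 20 macrophage markers are also on the lists of PU.1, C/EBP or MAF target genes used here.

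Cebpa (Entrez 12606, chromosome 7, 35119293 to 35121928, + strand) had 90.4, 115, 95.4 and 87.5 CPM in GPR35-positive libraries and 28.5, 9.87, 5.63 and 8.91 CPM in GPR35-negative libraries. The groups were far apart, and GPR35-negative replicate 1 was the nearest to the GPR35-positive range. Its log2 fold change, 2.87 ± 0.47 (SE; adjusted p = 0.00205 in edgeR), was the largest of the 9 in size. Cebpa was also the only factor of the 9 whose ratio to macrophage markers was higher in GPR35-positive libraries without overlap: 1.72, 1.98, 1.93 and 1.55 reads per 1000 marker reads there, against 1.16, 0.775, 0.957 and 1.12 in GPR35-negative libraries. The log2 difference was 0.85 in 4 of 4 animals, with an exact permutation p of 0.0286, the smallest that 4 against 4 can give. Of 14164 genes outside the marker list 0.953% were above in this way and 77.2% below, with a median log2 difference of -2.29. When libraries were scaled to the markers the log2 fold change of Cebpa was 0.77 and was not called (edgeR adjusted p = 0.0931).

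Cebpb (Entrez 12608, chromosome 2, 167688915 to 167690432, + strand) was the most variable factor in both populations. It had 514, 1069, 736 and 580 CPM in GPR35-positive libraries and 469, 296, 161 and 62.0 CPM in GPR35-negative libraries. The groups only just failed to meet, and in the animal of replicate 1 they were nearly level, with a log2 difference of 0.13 against 1.85, 2.20 and 3.22 in the other animals. Its log2 fold change was 1.55 ± 0.54 (SE; adjusted p = 0.0498 in edgeR), and this call held in 3 of the 12 fits that left out 1 library or 1 animal; the adjusted p was 0.0531 with RLE scaling and 0.0790 with library size alone. An exon of Tmem189 on the opposite strand overlaps 312 bases, 20.7%, of the Cebpb exons in the annotation. Since the libraries mark no strand, reads there cannot be assigned to one gene; the Tmem189 count was 13.3% to 33.7% of the Cebpb count in GPR35-positive and 16.7% to 70.1% in GPR35-negative libraries. The balance of the 2 C/EBP genes, as Cebpb reads over Cebpa reads, was 5.68, 9.30, 7.72 and 6.62 in GPR35-positive and 16.4, 30.0, 28.5 and 6.96 in GPR35-negative libraries. It was lower in the GPR35-positive library of all 4 animals, but GPR35-negative replicate 4 lay inside the GPR35-positive range (log2 difference -1.29, exact permutation p = 0.0857).

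Runx3 (Entrez 12399, chromosome 4, 135120645 to 135177990, + strand) showed the most even difference among animals. It had 122, 100, 79.2 and 78.5 CPM in GPR35-positive libraries and 30.4, 20.7, 16.5 and 18.5 CPM in GPR35-negative libraries, with log2 differences of 2.0, 2.27, 2.26 and 2.08 in the 4 animals. The animals of replicates 1 and 2 had the higher levels in both populations, and the 4 differences lay closer together than the levels. Runx3 had a log2 fold change of 2.14 ± 0.23 (SE; adjusted p = 3.21e-04 in edgeR), the smallest adjusted p of the 9, and the call held in all 12 fits that left out a library or an animal.

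Runx1 (Entrez 12394, chromosome 16, 92601466 to 92826074, - strand) had 226, 179, 212 and 213 CPM in GPR35-positive libraries and 135, 71.7, 29.5 and 38.9 CPM in GPR35-negative libraries. GPR35-positive libraries were close together, and the GPR35-negative ones were spread over more than a 4-fold range, with replicate 1 the highest. The log2 fold change was 1.59 ± 0.43 (SE; adjusted p = 0.0186 in edgeR), and the call was lost without the animal of replicate 2, 3 or 4 (edgeR adjusted p = 0.0679, 0.0593 and 0.0917). Relative to macrophage markers Runx1 was lower in GPR35-positive libraries without overlap, at 4.30, 3.08, 4.29 and 3.78 reads per 1000 marker reads against 5.50, 5.63, 5.00 and 4.87 in GPR35-negative libraries (log2 difference -0.45, exact permutation p = 0.0286). By this ratio 77.2% of 14164 genes outside the marker list were lower in GPR35-positive libraries without overlap. The median log2 difference of the 14164 genes was -2.29, and 7.36% of them lay above Runx1. The spread of the Runx1 ratio in the GPR35-negative libraries, from 4.87 to 5.63, was narrow: the SD of the log2 values was 0.98 as CPM and 0.10 as the ratio to markers. Runx3 reads over Runx1 reads were 0.539, 0.559, 0.374 and 0.369 in GPR35-positive and 0.225, 0.289, 0.559 and 0.476 in GPR35-negative libraries, which overlapped (log2 difference 0.32, exact permutation p = 0.400).

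Zeb2 (Entrez 24136, chromosome 2, 44983512 to 45117442, - strand) had 453, 266, 315 and 318 CPM in GPR35-positive libraries and 210, 65.0, 56.6 and 63.6 CPM in GPR35-negative libraries. Replicate 1 was the highest of both populations, and in the GPR35-negative one it stood apart from 3 libraries that were nearly equal. Over all libraries the log2 fold change was 1.77 ± 0.44 (SE; adjusted p = 0.0129 in edgeR) in 4 of 4 animals, and the call was lost without the animal of replicate 2, 3 or 4 (edgeR adjusted p = 0.0537, 0.0586 and 0.0722). The antisense transcript Zeb2os shares 653 exon bases with Zeb2, 3.27% of its exons, and had 5.45% to 10.8% of the Zeb2 count in GPR35-positive and 7.11% to 7.86% in GPR35-negative libraries. Zeb1, the other member of the family and better known in stromal and lymphoid cells, averaged 3.17 CPM in GPR35-positive and 8.19 CPM in GPR35-negative libraries (log2 fold change -1.37 ± 0.49; edgeR adjusted p = 0.0538). Zeb2 reads over Zeb1 reads were 156, 130, 100 and 69.3 in GPR35-positive and 55.8, 14.4, 4.84 and 4.98 in GPR35-negative libraries, without overlap (log2 difference 3.21, exact permutation p = 0.0286). How often pairs of other genes differ in this way was not computed. By TMM-scaled CPM 21.5% of all tested genes were above without overlap, as was Zeb2.

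Maf (Entrez 17132, chromosome 8, 115703253 to 115706894, - strand) was the steadiest factor but Klf2 in GPR35-positive cells, with 39.3, 40.3, 36.6 and 41.4 CPM, and among the most scattered in GPR35-negative cells, with 46.9, 24.8, 9.55 and 12.7 CPM. GPR35-negative replicate 1 lay above all GPR35-positive libraries and the other 3 below them. The log2 fold change of 0.75 ± 0.44 (SE) was not called (edgeR adjusted p = 0.207). With the animal as a block it was 1.02 and not called in edgeR (adjusted p = 0.0816), but called higher in DESeq2 (adjusted p = 0.0244). Without a block it was 1.34 and called without the animal of replicate 1 (edgeR adjusted p = 0.0279) and also without GPR35-negative replicate 1 alone (edgeR adjusted p = 0.0109). Relative to macrophage markers the direction was the opposite, with 0.747, 0.694, 0.742 and 0.734 reads per 1000 marker reads in GPR35-positive libraries and 1.91, 1.95, 1.62 and 1.59 in GPR35-negative libraries. All GPR35-negative libraries were higher by this measure, and both groups were tight (log2 difference -1.27, exact permutation p = 0.0286). Of 14164 genes outside the marker list, 77.2% were lower in GPR35-positive libraries without overlap by this measure. The median log2 difference of the 14164 genes was -2.29, and 16.4% of them lay above Maf.

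Klf2 (Entrez 16598, chromosome 8, 72319062 to 72321654, + strand) was the highest factor and the one that differed least in CPM, with 969, 1076, 1021 and 1031 CPM in GPR35-positive libraries and 992, 1105, 851 and 1232 CPM in GPR35-negative libraries. The ranges overlapped and 1 of 4 animals had more in the GPR35-positive library. Its log2 fold change was -0.03 ± 0.15 (SE; adjusted p = 0.892 in edgeR), close to the median of all genes. Per 1000 macrophage marker reads it was at 18.4, 18.5, 20.7 and 18.3 in GPR35-positive and 40.4, 86.7, 145 and 154 in GPR35-negative libraries. On this scale the GPR35-positive libraries were nearly equal and the GPR35-negative ones higher and spread widely (log2 difference -2.31, exact permutation p = 0.0286). The median log2 difference of 14164 genes outside the marker list was -2.29, and 51% of them lay above Klf2. By this ratio 77.2% of these genes were lower in GPR35-positive libraries without overlap. KLF2 is also abundant in resting lymphocytes and endothelium, and the summed markers of B and plasma cells and of stromal, endothelial and muscle cells were higher in every GPR35-negative library than in any GPR35-positive one. For the stromal, endothelial and muscle list they were 237 to 1160 CPM in GPR35-positive and 3202 to 7607 CPM in GPR35-negative libraries, with 9 of 14 genes called lower and none at 0; the part of those cells in the Klf2 counts was not tested.

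Klf4 (Entrez 16600, chromosome 4, 55527137 to 55532475, - strand) had 110, 169, 135 and 128 CPM in GPR35-positive libraries and 75.2, 69.1, 78.0 and 81.3 CPM in GPR35-negative libraries. It differed from the other 8 factors in that its GPR35-negative libraries were the closer together, with an SD of log2 CPM of 0.10 against 0.26 in the GPR35-positive ones. Klf4 had a log2 fold change of 0.83 ± 0.15 (SE; adjusted p = 0.00279 in edgeR), and the call held in all 12 fits that left out a library or an animal. Per 1000 macrophage marker reads Klf4 was at 2.09, 2.92, 2.73 and 2.27 in GPR35-positive and 3.06, 5.43, 13.3 and 10.2 in GPR35-negative libraries, so the direction turned with the scale (log2 difference -1.47, exact permutation p = 0.0286). On that scale 77.2% of 14164 genes outside the marker list were lower in GPR35-positive libraries without overlap. The median log2 difference of the 14164 genes was -2.29, and 20.5% of them lay above Klf4. Klf4 reads over Klf2 reads, which depend on no scaling, were 0.113, 0.158, 0.132 and 0.124 in GPR35-positive and 0.0758, 0.0626, 0.0917 and 0.0660 in GPR35-negative libraries, higher in 4 of 4 animals without overlap (log2 difference 0.84, exact permutation p = 0.0286). Klf2 lay close to the median of all genes, so this ratio is not separate from the TMM-scaled Klf4 difference. By TMM-scaled CPM 21.5% of all tested genes were above without overlap, and no such share was computed for this ratio.

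**Figure D3:**
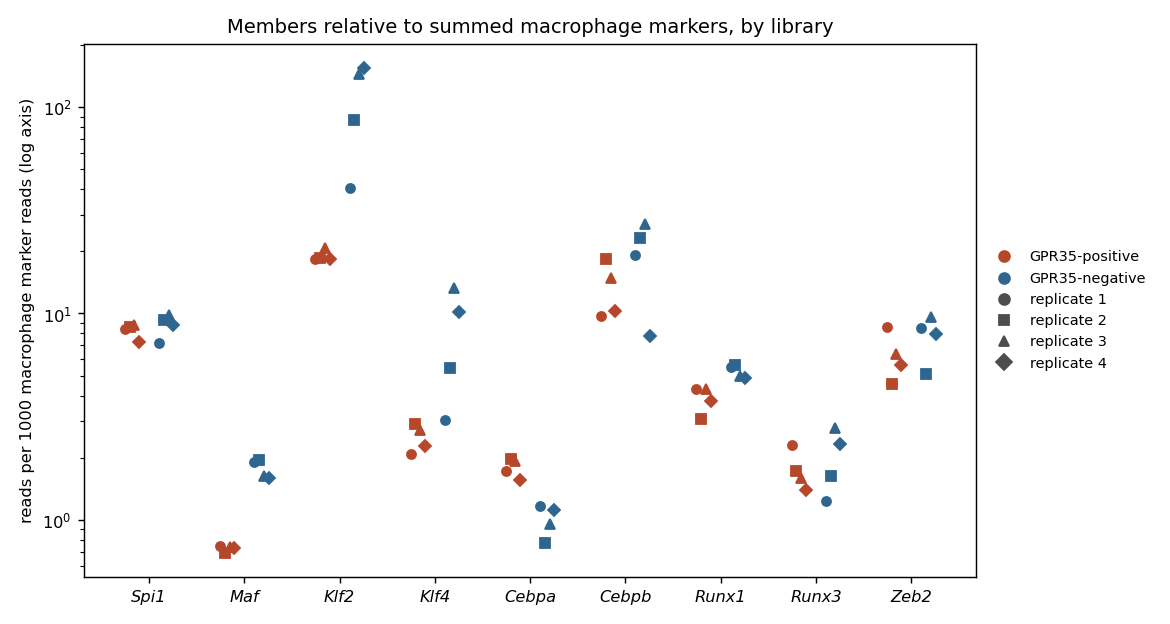
Reads of each factor per 1000 summed reads of the 20 macrophage markers (log axis) in GPR35-positive (red, left of each pair) and GPR35-negative libraries (blue, right); symbols give the replicate. Cebpa is higher and Maf, Klf2, Klf4 and Runx1 are lower in GPR35-positive libraries without overlap, and Spi1, Cebpb, Runx3 and Zeb2 overlap. Of 14164 genes outside the marker list, 0.953% were higher and 77.2% lower without overlap by this ratio.

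For the whole set, 14 such ratios were compared: 9 factors over the macrophage markers and 5 between pairs of genes. For 8 the exact permutation p was 0.0286, the smallest possible. After Benjamini-Hochberg adjustment over the 14 these became 0.05, which is at the threshold and not under it, so 0 of 14 passed; flipping the sign within the 4 animals cannot give an exact p below 0.125. Leaving Lyz2, which held 29.5% to 39.3% of the marker reads, out of the marker sum moved the Spi1 difference to 0.02 and left 7 ratios at the smallest p; this setting was chosen after the data were seen. Under it the Klf4 ratio was the one that no longer reached that p.

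**Figure D4:**
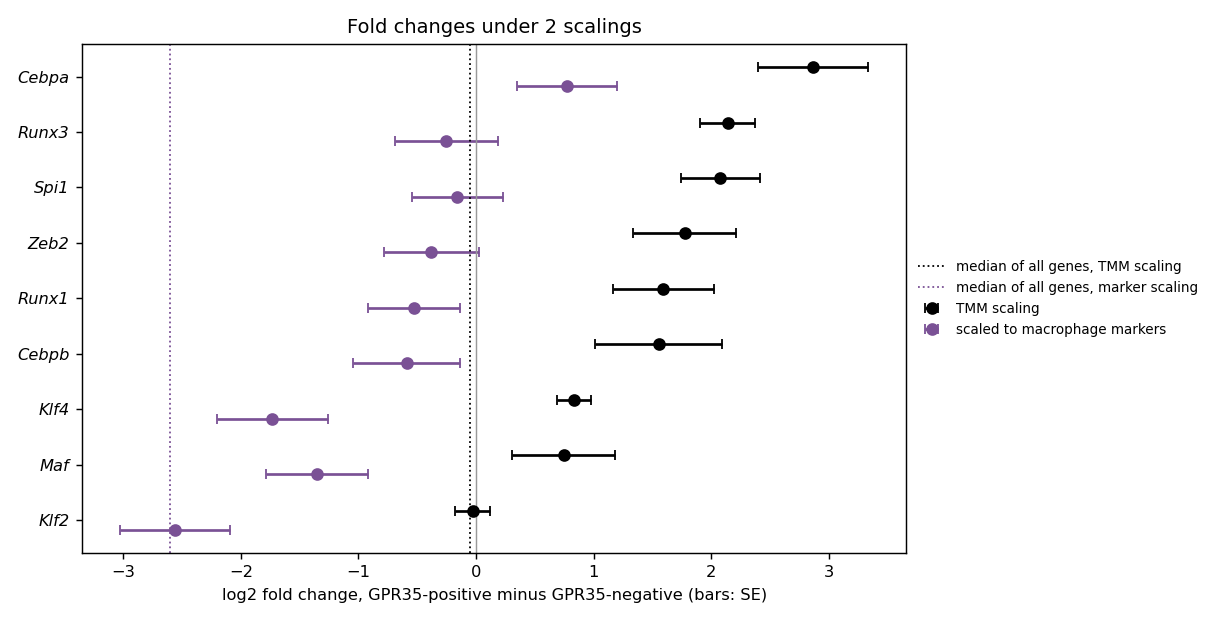
Log2 fold change (GPR35-positive minus GPR35-negative, bars SE) of the 9 factors with TMM scaling (black) and after scaling each library to the macrophage markers (purple); dotted lines are the medians of all tested genes, -0.05 and -2.60. With marker scaling Cebpa stays above 0 at 0.77, Spi1 is at -0.16, Runx3 at -0.25, Zeb2 at -0.38, Runx1 at -0.52 and Cebpb at -0.59, none of them called, and Maf at -1.35, Klf4 at -1.73 and Klf2 at -2.56 are called lower.

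The spread among GPR35-negative libraries had a shared form for most factors. Their SD of log2 CPM there was 0.73 for Spi1, 1.03 for Maf, 0.99 for Cebpa, 1.26 for Cebpb, 0.98 for Runx1 and 0.89 for Zeb2, against a median of 0.44 over all tested genes. All 6 varied less as a ratio to macrophage markers, with SDs of 0.20, 0.15, 0.26, 0.81, 0.10 and 0.40 in the same order. Klf2, Klf4 and Runx3 did the opposite, with SDs of 0.23, 0.10 and 0.38 as log2 CPM and 0.89, 0.95 and 0.53 as the ratio. In GPR35-positive libraries the SDs of log2 CPM were 0.06 to 0.47, with a median of 0.25 over all genes. These SDs were compared after the values were seen, and no test was made of them. GPR35-negative replicate 1 was the highest for 7 factors and also had the highest macrophage marker sum of its group, 24550 CPM, and the lowest B and plasma cell sum, 73490 CPM; the part of this library in each fold change is measured by the fits without it.

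Likeness over the 8 libraries was measured as the root mean square difference of log2 CPM profiles centred on their own means, among 9398 genes with a mean log2 CPM of at least 3. Most like Spi1 were Atf3 (0.08), a stress-response factor, and Ctsh (0.09), a lysosomal protease. Cebpa was most like Csf2ra (0.13), the α chain of the GM-CSF receptor, and Fam105a (0.16), and Runx3 was most like Nfe2l2 (0.15), the regulator of oxidative stress genes, and Cd40 (0.16), a co-stimulatory receptor. For Maf they were the chemokine gene Ccl2 (0.14) and Marcksl1 (0.16), for Klf4 Vrk1 (0.11) and Fance (0.12), and for Klf2 Cep83 (0.07) and Asl (0.08). For Runx1 they were Adap2 (0.12) and Rab3il1 (0.13), for Zeb2 Arhgap19 (0.12) and Gab2 (0.13), and for Cebpb, whose nearest genes were the farthest away, 5031439G07Rik (0.26) and Epsti1 (0.30). Among the 9 factors themselves the closest pairs were Spi1 with Runx1 (0.29), Spi1 with Runx3 (0.29) and Runx1 with Zeb2 (0.32), and the farthest was Klf2 with Cebpa (1.69). These profiles share libraries and their makeup, so likeness is a description only.

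Across the wider families of the 9, 38 other genes were tested, of which 19 were called higher, 5 lower and 14 not called, with a median log2 fold change of 0.55 (edgeR, adjusted p under 0.05). Of 16 other ETS genes 8 were higher, among them Etv6 (1.44 ± 0.23), Elf4 (1.57 ± 0.25) and Elk3 (0.77 ± 0.18; log2 fold changes with SE, as below). The 2 that were lower were Ets1 (-2.71 ± 0.35), which is best known in lymphocytes, and Spib (-3.46 ± 0.81), the close relative of Spi1 that serves in B cells and plasmacytoid dendritic cells. The small MAF proteins were higher, with Maff at 1.72 ± 0.25, Mafk at 0.99 ± 0.15 and Mafg at 0.98 ± 0.22. Of 12 KLF genes 4 were higher, including Klf10 (1.54 ± 0.24), an early gene of TGF-β signalling, Klf3 (1.12 ± 0.20) and Klf11 (0.94 ± 0.18), and 2 lower, Klf9 (-1.78 ± 0.24) and Klf8 (-1.79 ± 0.50).

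Among C/EBP relatives Cebpg (0.67 ± 0.17) and Ddit3 (1.04 ± 0.27), the stress-induced factor CHOP, were higher and Cebpd was at -0.47 ± 0.20, not called. Runx2, the skeletal member that also occurs in plasmacytoid dendritic cells, was lower (-1.49 ± 0.31), at 10.8 ± 4.37 CPM in GPR35-positive and 30.3 ± 5.64 CPM in GPR35-negative libraries, while Cbfb, the shared partner of all RUNX proteins, was higher (0.66 ± 0.17). So within 1 family, Runx1 and Runx3 were higher and Runx2 lower. Under scaling to the macrophage markers the ETS, KLF, C/EBP and RUNX relatives were all below 0, and 32 of the 38 relatives were called lower. Over all tested genes 86.4% were called lower under that scaling.

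**Figure D5:**
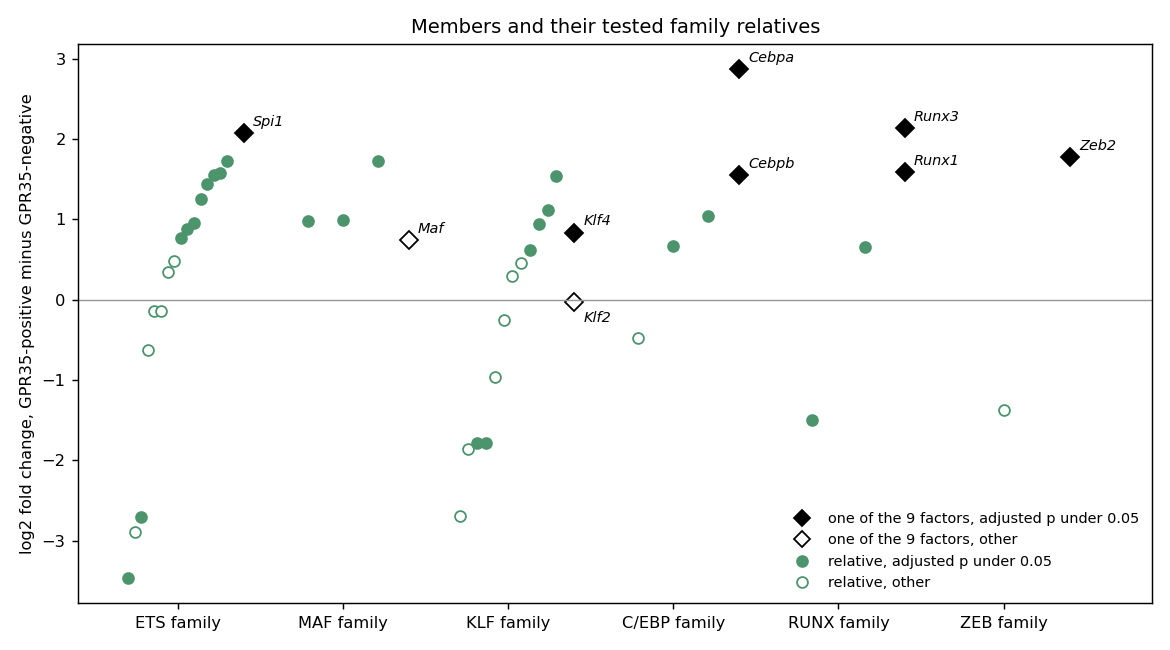
Log2 fold change (GPR35-positive minus GPR35-negative, TMM scaling) of the 9 factors (black diamonds, named) and of 37 relatives (green circles), by family; filled symbols passed an edgeR adjusted p of 0.05. Relatives lie on both sides of 0 in the ETS, KLF, C/EBP and RUNX families. The drawn relatives run from -3.46 for Spib to 1.72 for Maff, and the 9 factors from -0.03 for Klf2 to 2.87 for Cebpa.

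Partners and antagonists of these factors went both ways, with 7 of 19 tested genes higher, 7 lower and 5 not called, and a median log2 fold change of 0.06. Scaled to the macrophage markers, 0 were called higher and 18 lower, a scaling under which 86.4% of all tested genes were lower. Ctbp2 (1.18 ± 0.21), a co-repressor that ZEB and KLF proteins recruit, was higher and Ctbp1 (-0.64 ± 0.16), its close relative, lower. Bcl6 (1.27 ± 0.33), a repressor of inflammatory genes, and Zbtb7b (1.08 ± 0.24), which with RUNX proteins sets T cell lineage choice, were higher. Gfi1, a repressor that opposes PU.1 in granulocyte and lymphoid development, had 0.64 ± 0.44 CPM in GPR35-positive and 15.8 ± 11.5 CPM in GPR35-negative libraries (log2 fold change -4.61 ± 0.72; edgeR adjusted p = 0.00168). Tcf7 (-1.67 ± 0.50), a T and innate lymphoid factor, was lower as well. The summed markers of T and innate lymphoid cells were 49.3 to 63.0 CPM in GPR35-positive and 325 to 582 CPM in GPR35-negative libraries. Of 11 tested markers 8 were called lower. In GPR35-negative libraries Cd28 and Cd2 of this list averaged 254 and 141 CPM, and Cd3e, Cd3d and Cd3g 4.97, 3.21 and 7.24 CPM. The part of T and innate lymphoid cells in these differences was not tested.

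The lists of genes known to be bound or driven by the factors differed among themselves. With marker scaling the median over all tested genes was -2.60, with 0.557% called higher and 86.4% lower. The median log2 fold change of a list was above 0 with TMM scaling and below 0 with marker scaling for the PU.1, C/EBP and MAF target lists, and below 0 with both for the KLF, RUNX3 and ZEB lists. All 17 PU.1 target genes were called higher, with a median log2 fold change of 1.99, close to the 2.08 of Spi1 and to the 2.01 of the macrophage markers; Ncf4 (1.5 ± 0.13), a subunit of the phagocyte oxidase, Csf2rb (2.49 ± 0.27), the β chain of the GM-CSF receptor, and Ctss (2.28 ± 0.27), a lysosomal protease, had the smallest p. Scaled to the macrophage markers, 2 of these 17 were called higher and 4 lower, with a median of -0.09. Fcgr1 on that list encodes CD64, on which both populations were sorted. Of the 20 macrophage markers 14 are also on the PU.1, C/EBP or MAF target lists. Among them are Fcgr1 and Ctss of the PU.1 list, Lyz2 of the C/EBP list and C1qa, C1qb and C1qc of the MAF list. These lists are thus not independent of the markers or of marker scaling, and the likeness of the PU.1 targets to the markers is no separate observation. Of 8 C/EBP target genes 4 were higher, Il1b (4.48 ± 0.52), Ptgs2 (3.02 ± 0.53), Lyz2 (2.25 ± 0.45) and Chil3 (5.20 ± 1.22), which had no count in at least 1 GPR35-negative library, and Il6, Arg1, Saa3 and Lcn2 were not called; with marker scaling 1 was called higher and 3 lower. Of 8 MAF target genes Il10 (1.58 ± 0.30), C1qa (1.95 ± 0.44), C1qb (2.02 ± 0.46) and C1qc (1.86 ± 0.44) were higher, and Cd163, Stab1, F13a1 and Mrc1 were not called; with marker scaling all 8 were below 0 and 3 were called lower. Il10 is the anti-inflammatory cytokine of intestinal macrophages and the C1q genes encode the first component of complement.

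None of the 5 tested KLF2 and KLF4 target genes was called higher: Itgb7 (-2.09 ± 0.29), the gut-homing integrin chain, and Thbd (-1.21 ± 0.26), the anticoagulant receptor thrombomodulin, were lower and the other 3, S1pr1 and Nos3 among them, were not called. These genes are best known as KLF targets in T cells and endothelium. Of 5 RUNX3 target genes, a list that rests on T cells, Cd4 (1.83 ± 0.28) was higher and Il2rb (-3.83 ± 0.33) and Itgal (-0.75 ± 0.17) lower. In T cells RUNX3 silences Cd4, whereas here Cd4 and Runx3 were both higher in GPR35-positive cells with TMM scaling and both below 0 with marker scaling; Cd4 had 158 to 173 CPM there and 32.7 to 80.9 CPM in GPR35-negative libraries. Of 4 genes that ZEB proteins repress, Epcam (-3.16 ± 0.25), an epithelial adhesion protein, was lower and Id2 (0.99 ± 0.26), an inhibitor of helix-loop-helix factors, higher, and all 4 were called lower with marker scaling. So were 86.4% of all tested genes with that scaling. The summed epithelial markers were 99.8 to 181 CPM in GPR35-positive and 228 to 706 CPM in GPR35-negative libraries, with 3 of 10 lower and none at 0, and their part in the Epcam difference was not tested.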

How the data were processed

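RNA of 8 sorted colonic macrophage samples was analysed, 4 per group. The values deposited by the authors are raw counts of reads for each gene, unscaled whole numbers, beside a gene length. The submitters' processing notes name the mm10 build, R 3.4.2 and STAR 2.5.2a; how reads were counted, and on which annotation, is not given in the sources used here. Of 14980 genes 9 had no symbol (0.0179% of counts) and were left out.

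Counts were tested with edgeR 4.0.16 (R 4.3.3): filterByExpr (minimum count 10, minimum total 15), TMM scaling, robust quasi-likelihood F-test without a block, Benjamini-Hochberg over 14184 genes, threshold 0.05. The SE is the log2 fold change divided by the root of the F statistic. Log2 CPM used a prior count of 2, and RPKM the deposited length. Ratios within a library had 0.5 added to each count and were compared by 2-sided exact permutation tests (70 arrangements, Python 3.11.15). The labels give 4 animals and no batch or date. The main fit and the permutation tests leave out the pairing by animal. Their p-values thus measure the spread among libraries within each group. No pair of replicates agreed within sampling noise. The fit was tested on simulated counts.

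The labels give both libraries of an animal the same animal number, so the numbers pair the libraries. Once group means were removed, the 2 libraries of an animal had correlations over genes of 0.206, 0.206, 0.431 and 0.0637. The highest correlations across groups with another animal were 0.104, 0.104, 0.237 and 0.237. For replicate 4 the value within the animal was thus the lower, and for replicates 1, 2 and 3 the higher. In edgeR the block changed no call among the 9 factors; in DESeq2 it added Maf.

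The members, gene lists and tests were chosen with earlier results of these data known. The text names the 9 factors, Gpr35, up to 3 higher and 3 lower genes with the smallest p from each family, partner and target list, the 2 genes most like each factor and the highest gene of each marker list. Mafg, Chil3, C1qc, Zeb1, Cebpd, Ly6c2, Vcan, Prg2, Cpa3, Cd2, Cd3e, Cd3d, Cd3g and genes named as not called were added after their values were seen. Coordinates are those of the GRCm38.p6 annotation and sequences those of RefSeq for that build.

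Alternatives were RLE, library-size and macrophage-marker scaling, other count filters, the replicate block, DESeq2 1.42.0, limma 3.58.1 voom with quality weights, an offset of 5, leaving out each animal or library and, added after seeing the data, a marker sum without Lyz2. Some tested genes and 1 of the ratios are counted but not reported here.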

Additional observations from a re-analysis of the deposited data

Results flagged for a closer look

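Among 184 groups of 4 libraries examined, 8 had 1 library apart from the other 3, and chance alone gives about 1 in 20. Zeb2 had 209.6 CPM in GPR35-negative replicate 1, against 56.6 to 65.0 CPM in the other GPR35-negative libraries. The genes most like it did the same, since likeness was measured over these libraries: Arhgap19 had 77.2 CPM there against 20.9 to 26.4 CPM, and Gab2 45.2 CPM against 14.4 to 15.99 CPM. Cd4 had 80.9 CPM in that library and 32.7 to 38.3 CPM in the others of its group. In GPR35-positive replicate 1, Bcl6 had 56.5 CPM against 25.6 to 27.4 CPM, Klf3 had 121 CPM against 98.6 to 100.7 CPM, and Cd209a, a dendritic cell marker on the list used here, had 29.0 CPM against 239 to 257 CPM. The log2 ratio of Klf2 to the macrophage markers was -5.60 in GPR35-positive replicate 3 and -5.77 to -5.76 in the other GPR35-positive libraries. So 7 of the 8 lie in libraries of the animal of replicate 1.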

How the results depend on the processing

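Scaling every library to the macrophage markers, without and with the replicate block, turned most log2 fold changes round and moved the median of all genes to -2.60 and -2.38. The values, in that order, were 5031439G07Rik -0.68 and -0.54, Adap2 -0.51 and -0.52, Arhgap19 -0.37 and -0.38, Atf3 -0.17 and -0.17, Bcl6 -1.09 and -1.15, C1qa -0.17 and -0.17, C1qb -0.081 and -0.073, Cbfb -1.78 and -1.68, Ccl2 -1.45 and -1.43, Cd4 -0.47 and -0.43, Cd40 -0.32 and -0.34, Cebpb -0.59 and -0.52, Cebpg -1.79 and -1.69, Ctbp2 -1.33 and -1.15, Ctsh -0.16 and -0.14, Ctss -0.044 and -0.016, Ddit3 -1.32 and -1.29, Elf4 -0.93 and -0.76, Elk3 -1.84 and -1.58, Epsti1 -0.60 and -0.50, Etv6 -0.99 and -0.93, Fance -1.84 and -1.67, Gab2 -0.24 and -0.24, Id2 -1.35 and -1.31, Il10 -0.96 and -0.79, Klf10 -0.87 and -0.79, Klf11 -1.54 and -1.45, Klf3 -1.31 and -1.21, Klf4 -1.73 and -1.55, Maf -1.35 and -1.34, Maff -0.84 and -0.72, Mafk -1.56 and -1.38, Marcksl1 -1.28 and -1.26, Ncf4 -1.0 and -0.87, Nfe2l2 -0.25 and -0.25, Rab3il1 -0.45 and -0.45, Runx1 -0.52 and -0.53, Runx3 -0.25 and -0.21, Spi1 -0.16 and -0.15, Vrk1 -1.68 and -1.5, Zbtb7b -1.48 and -1.25, Zeb2 -0.38 and -0.38, Cep83 -2.51 and -2.36. Genes differing then numbered 12338 and 11681, genes higher 79 and 103, genes lower 12259 and 11578, factors higher 0 and 0, and factors lower 3 and 3, in place of 5386, 2617, 2769, 7 and 0. With library size alone 1692 genes were higher and 4193 lower.

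Without each animal or library in turn the factors higher ranged from 4 to 8, genes differing from 3284 to 5966, genes higher from 1572 to 2931 and genes lower from 1680 to 3035. Without the animal of replicate 2, 3 or 4 the 4 that kept their call were Spi1, Klf4, Cebpa and Runx3. In edgeR the block, for animals that are paired, left 7 factors higher, with 5585 genes differing, and changed the calls of Marcksl1 (adjusted p = 0.0296) and Cpa3 (adjusted p = 0.106) only, among the genes named by rule and Ly6c2, Prg2 and Cpa3. DESeq2 with the block and voom called 8 factors, adding Maf.

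Near 0 the sign was not fixed. Klf2 was at 0.070 with voom and ranged from -0.12 to 0.063 in the leave-out fits; Cep83 was at -0.024 with RLE scaling, -0.29 with library size alone, -0.078 with the 5 CPM filter, -0.023 with DESeq2 and -0.0038 with its block, and from -0.11 to 0.13 in the leave-out fits; Asl was at 0.042 with voom and from -0.089 to 0.066. The Runx3 ratio to markers was 0.084 and 0.061 without replicates 3 and 4, and ranged from -0.49 to 0.084, and the Spi1 ratio without Lyz2 was 0.016.

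The lowest mean of a factor in a group was 13.2 CPM, and the number of animals limits the precision of each fold change. The strand and use of promoters were not resolved. The cause of each change was not tested.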

Other observations

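Of the other cell types that the sort could hold, monocyte markers went both ways, with 3 of 9 called higher and 2 lower in GPR35-positive cells. Their summed level was 2170 to 2725 CPM in GPR35-positive and 1884 to 2481 CPM in GPR35-negative libraries. Ccr2, the chemokine receptor of recruited monocytes, had 1657 ± 259 CPM in GPR35-positive and 111 ± 117 CPM in GPR35-negative libraries (SD, n = 4 each; log2 fold change 3.90 ± 0.70, edgeR adjusted p = 0.00322). It stayed above 0 when every library was scaled to the macrophage markers (1.98). Ly6c2, a surface protein of classical monocytes whose reads may be shared with its close copy Ly6c1, went the other way, with 53.6 ± 9.02 CPM in GPR35-positive and 1532 ± 373 CPM in GPR35-negative libraries (SD, n = 4 each; log2 fold change -4.84 ± 0.24, edgeR adjusted p = 1.04e-05). Vcan, the other monocyte marker called lower, averaged 1.63 CPM in GPR35-positive and 7.91 CPM in GPR35-negative libraries. Which cells the Ly6c2 reads came from was not tested. Of 8 dendritic cell markers 1, Cd209a, was higher (4.70 ± 0.67), and Zbtb46 and Clec9a had no count in at least 1 GPR35-negative library. Their sum was 73.0 to 442 CPM in GPR35-positive and 42.3 to 247 CPM in GPR35-negative libraries.

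Among granulocyte and mast cell markers Csf3r, the G-CSF receptor gene, was higher (2.39 ± 0.59) and 2 of 9 were lower. Prg2, the major basic protein of eosinophils, had 1.36 ± 0.55 CPM in GPR35-positive and 101 ± 53.9 CPM in GPR35-negative libraries (log2 fold change -6.20 ± 0.51, edgeR adjusted p = 9.42e-05), and Cpa3, a mast cell protease, was at -3.80 ± 1.17, a call that the fit with the animal as a block did not keep (edgeR adjusted p = 0.106). Siglecf was at 1.94 ± 1.03, Ccr3 at -0.07 ± 1.16 and Kit at -0.19 ± 0.44, none of them called. S100a8, S100a9 and Mcpt1, all below 0, were not called either, and Epx was not listed. The granulocyte and mast cell list had sums of 130 to 180 CPM in GPR35-positive and 118 to 270 CPM in GPR35-negative libraries. The T and innate lymphoid list was uneven in GPR35-negative libraries, where Cd28 averaged 254 CPM and Cd3e, Cd3d and Cd3g 4.97, 3.21 and 7.24 CPM. Of the T cell markers Cd28 (-4.65 ± 0.17), of the stromal markers Col3a1 (-3.23 ± 0.63) and of the epithelial markers Lypd8 (-1.90 ± 0.41) had the highest level and were lower in GPR35-positive cells. The same held for Hba-a1 (-2.96 ± 0.70) on the glial, neuronal and erythroid list, of which 4 of 8 were lower, with sums of 132 to 649 CPM in GPR35-positive and 501 to 3747 CPM in GPR35-negative libraries. The part of these cells in the levels of the 9 factors was not tested.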
